A study of Mus musculus with 12 samples.

Results

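The zinc finger genes Zfp600 to Zfp999 are described here in the organ of Corti, where the hair cells of the cochlea sit, of mice lacking clarin-1, clarin-2 or both. The genes were chosen by symbol alone, as every gene named Zfp with a number of 3 digits that starts with 6, 7, 8 or 9, and they are 174 of 55348 genes counted. All 174 were found in the Gencode M21 annotation of GRCm38, where 171 were protein coding and 3 were transcribed pseudogenes. RNA came from 4 genotypes at postnatal day 21 with 3 libraries each, namely wild-type mice, Clrn1-/- mice, Clrn2-/- mice and Clrn1-/-Clrn2-/- mice. Clrn1-/- mice carry a constitutive deletion of exon 4 of Clrn1, made with a Cre under the ubiquitous PGK promoter, Clrn2-/- mice are the clarinet line with an early stop codon in Clrn2, and the double mutants came from crossing both lines. Wild-type mice came from breedings of their own and were not littermates, so that breeding and genotype cannot be told apart, and the strain background of these groups was not given in the sources used here. Nothing in the labels says that the 3 libraries of a genotype are separate mice, so p-values measure the spread between these libraries, which may be technical.

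Zfp genes encode proteins with C2H2 zinc fingers, small folds held by a zinc ion that each read a few bases of DNA. Many carry a KRAB domain, which recruits the co-repressor TRIM28 and through it the histone methyltransferase SETDB1, and many of these bind transposable elements and keep them silent. Such genes arise by duplication and lie in clusters of similar copies, and the cluster on distal chromosome 4 is among those that expanded in the mouse lineage.

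The symbols matched the class in sequence. The codons of the conserved linker that joins neighbouring C2H2 fingers were searched on the sense strand of Gencode M21 transcripts. They were found at least once in 141 of the 174 genes and at least 5 times in 94, against 2.27% and 1.20% of 21901 protein-coding genes. In position, 113 of the 174 genes lay in 17 clusters, defined as 3 or more of them with gaps of at most 1 Mb. Chromosome 7 held 36, chromosome 17 held 22, and chromosome 4 held 20, of which 17 lay in a single cluster.

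Libraries had 30008679 to 41049302 counts on genes. Clrn1 lay at 2.69 to 3.04 CPM (counts scaled to library size) in Clrn1-/- libraries, against 23.8 to 28.6 in wild-type. Clrn2, whose stop codon need not lower its RNA, lay at 1.04 to 1.38 CPM in Clrn2-/- libraries and at 1.89 to 3.24 in wild-type, and it was also lower in Clrn1-/- libraries, at 0.853 to 1.04 CPM. Markers of other cells moved with genotype. All 5 red blood cell markers were called lower in Clrn1-/- and Clrn2-/- mice and 2 of 5 in double mutants. Their summed levels were 700 to 1138 CPM in wild-type and 278 to 379 in Clrn1-/- libraries. In double mutants 3 of 10 neuronal markers were called lower and 1 higher, and 4 of 8 supporting cell markers were called higher. Also in double mutants, 2 of 8 hair cell markers were called higher, and of 6 stria vascularis markers 2 were called lower and 1 higher. All 6 macrophage markers had higher values in Clrn1-/- mice (1 called, summed level 168 to 178 against 108 to 140 CPM in wild-type) and in double mutants (3 called), and 2 of 6 fibroblast markers were called higher in each of these, with summed levels of 1647 to 1983 CPM in wild-type and 2112 to 2334 CPM in Clrn1-/- libraries. In whole tissue, fewer cells of a type and less RNA per cell cannot be told apart, and the part of these differences in the results below was not tested.

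The sum of the levels of the 174 genes was 3243 ± 79.7 CPM in wild-type, 3275 ± 13.9 CPM in Clrn1-/- mice, 3287 ± 24.0 CPM in Clrn2-/- mice and 3247 ± 41.2 CPM in the double mutants, Clrn1-/-Clrn2-/- (SD, n = 3). Wild-type libraries spanned 3181 to 3333 CPM and held the values of all other libraries on this scale, for which libraries were scaled by TMM. The order depends on the scaling, since with library size alone wild-type libraries lay at 3135 to 3211 CPM and all 9 mutant libraries above them, at 3246 to 3344 CPM. After the filter on low counts, 149 of the 174 were tested among 19052 genes. These 149 had a median of 13.0 CPM, with 90 at 10 CPM or more, 53 from 1 to 10 and 6 below 1 CPM. Replicates were close, with a median coefficient of variation of 5.38% to 5.96% per genotype. The other 25 had 0 to 53 counts over all 12 libraries together, and Zfp616, Zfp640, Zfp735, Zfp935 and Zfp936 had none.

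Per length, the family was led by Zfp706, a short protein with few fingers, at 40.3 CPM per kb of exon over all libraries. It was followed by Zfp740 at 32.5, Zfp651, which has a BTB domain, at 28.7, and Zfp869 at 25.8 CPM per kb. Zfp664 (18.3) and Zfp771 (17.8 CPM per kb) came next, closer to each other than their spread. Zfp692 reached 14.6, Zfp637 11.6, Zfp703, a transcriptional co-repressor, 10.9 and Zfp938 10.2 CPM per kb, and the last 2 were also closer than their spread. The next gene, Zfp612 at 10.1 CPM per kb, did not differ from Zfp938 beyond the spread, and in wild-type, at 11.2 CPM per kb, it stood above Zfp637, Zfp703 and Zfp938. A gene is called here when its adjusted p is 0.05 or less and its level differs by 1.5-fold or more. None of the 10 was called in any mutant against wild-type by edgeR, limma-voom or DESeq2, although 14 of the 30 edgeR values had an unadjusted p under 0.05 and 8 an adjusted p under it. The largest of these differences was that of Zfp692 in double mutants, at 12.6 ± 0.328 against 15.5 ± 0.103 CPM per kb in wild-type (log2 fold change -0.31). Zfp869 was lower in Clrn1-/- mice, at 22.6 ± 0.242 against 25.5 ± 0.625 CPM per kb, a log2 difference of -0.17 that is also below the fold minimum.

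**Figure D1:**
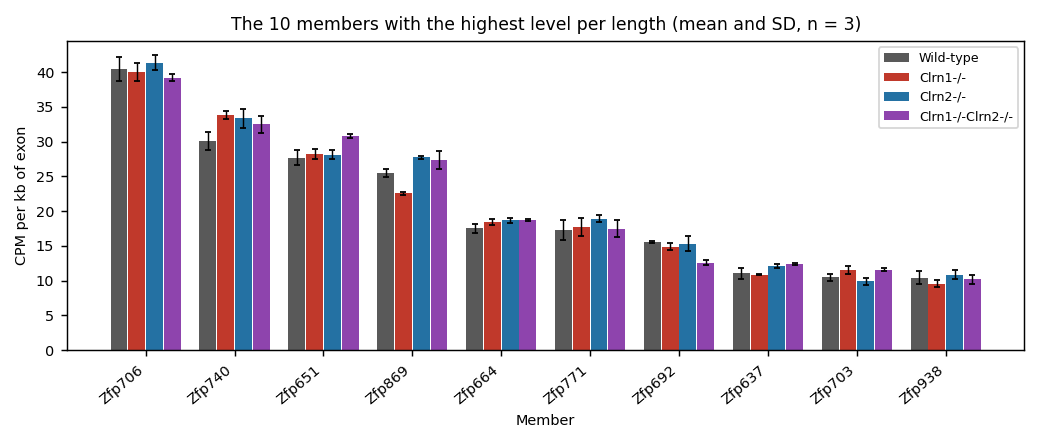
Level per length (CPM per kb of exon) of the 10 members with the highest values, with a bar per genotype at the mean and the SD of 3 libraries. Zfp706 stands between 39.2 and 41.4 CPM per kb in the 4 genotypes, and the bar of Zfp692 is lowest in double mutants and that of Zfp869 in Clrn1-/- mice.

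In Clrn1-/- mice, 9 of the 149 genes differed from wild-type, and 6 of these 9 lay in the cluster on chromosome 4. Zfp990, Zfp985, Zfp853 and Zfp963 were over-expressed, while Zfp982, Zfp988, Zfp991, Zfp984 and Zfp951 were under-expressed. The 9 genes are 6.04% of the 149, against 7.22% of all genes tested, of which 3.52% were over-expressed and 3.70% under-expressed. The share among the zinc finger genes was thus near that of all genes. By adjusted p alone, 18 were higher and 23 lower, together 27.5% against 26.9% of all genes. Libraries did not overlap between the groups for 66 of the 149 (44.3%), against 40.2% of all genes. The median log2 difference of the 149 was -0.0067, with 74 higher and 75 lower, against a median of -0.0031 over all genes, and 96 of the 149 lay within 0.2 of no difference.

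In Clrn2-/- mice, none of the 149 genes was called in the edgeR test, and limma-voom and DESeq2 also called 0. Of all genes, 2.66% were called, 1.24% over-expressed and 1.42% under-expressed. At an unadjusted p under 0.05, 24 of the 149 differed, 12 in each direction. By adjusted p alone, 6 passed, namely Zfp932 and Zfp740 upwards and Zfp612, Zfp983, Zfp942 and Zfp946 downwards, with log2 differences between -0.27 and 0.31. They are 4.03% of the 149, against 14.2% of all genes. Zfp612, Zfp983, Zfp942 and Zfp946 are named after their values were seen. Libraries did not overlap for 30 of the 149 (20.1%), against 29.0% of all genes.

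In Clrn1-/-Clrn2-/- mice, 2 of the 149 were called against wild-type, Zfp648 and Zfp951, both under-expressed. They are 1.34% of the 149, whereas 9.90% of all genes were called, 5.88% over-expressed and 4.02% under-expressed. The same 2 were called by limma-voom and DESeq2. By adjusted p alone, 9 were higher and 22 lower, which is 20.8% of the 149 against 37.0% of all genes. Libraries did not overlap for 54 of the 149 (36.2%), against 48.2% of all genes. Of 216 other tested genes with Zfp symbols, 7 were called in Clrn1-/-, 1 in Clrn2-/- and 7 in double mutants.

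**Figure D2:**
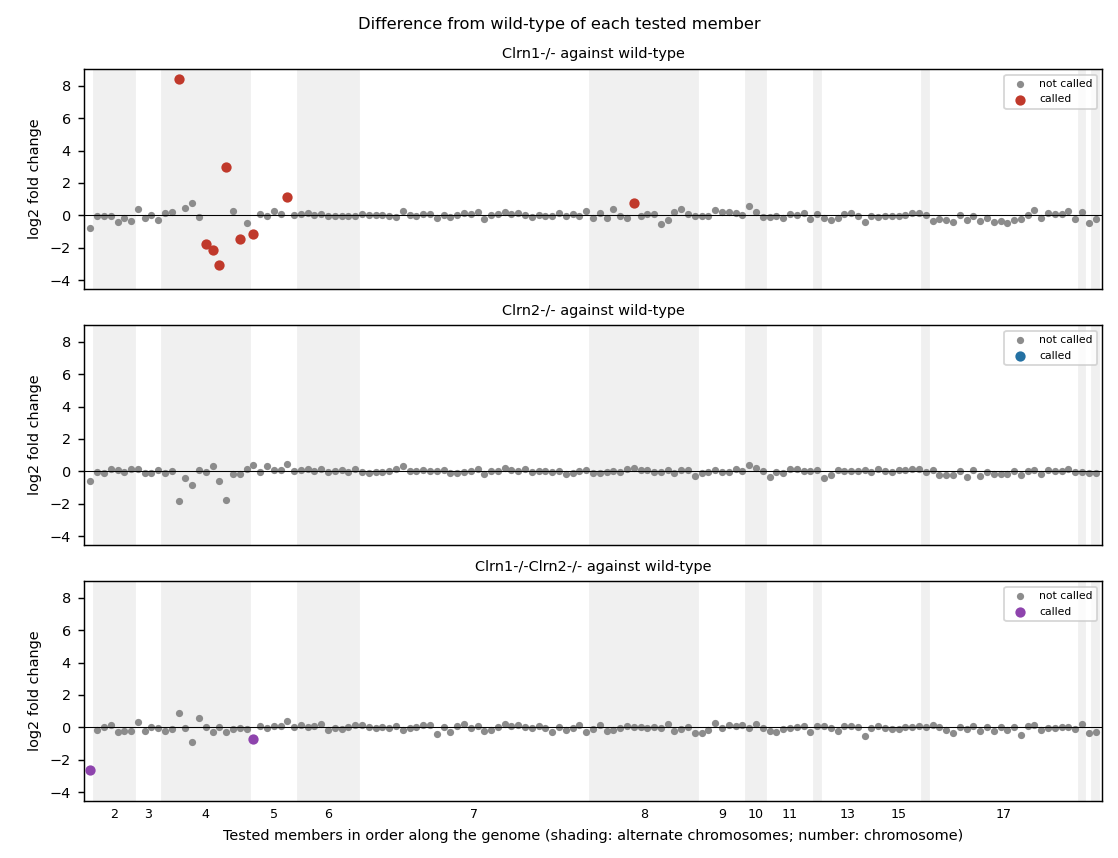
Log2 fold change against wild-type of each of the 149 tested members, in order along the genome, with a panel per mutant and coloured points for called genes. In Clrn1-/- mice 6 of 9 called points stand on chromosome 4, with Zfp990 at 8.39, whereas no point is coloured in Clrn2-/- mice and 2 are in double mutants. Values of genes with few counts, such as Zfp990 in the lower panels, depend on the fit's handling of zeros.

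The cluster spans chr4:145510759-147848366 (GRCm38) and holds 17 of the 174 genes, of which 11 were tested. Of these 11, 2 were called higher and 4 lower in Clrn1-/- mice, and libraries did not overlap with wild-type for 9. Of all genes, 7.22% were called in that comparison and 40.2% did not overlap. The 2 called higher, Zfp990 and Zfp985, passed the filter on low counts only through Clrn1-/- libraries, which favoured their calls. None of the 11 was called against wild-type in Clrn2-/- mice or double mutants by edgeR, limma-voom or DESeq2, and 2 and 0 of them had an unadjusted p under 0.05 in edgeR. In Clrn2-/- mice 8 had lower and 3 higher values, and in double mutants 7 had lower and 4 higher values. The 17 genes together reached 39.98 ± 1.06 CPM in wild-type, 31.4 ± 1.00 CPM in Clrn1-/- mice, 38.8 ± 3.49 CPM in Clrn2-/- mice and 38.5 ± 2.38 CPM in double mutants (SD, n = 3). The Clrn1-/- libraries, at 30.3 to 32.2 CPM, lay below the other 9, the lowest of which was a Clrn2-/- library at 34.7 CPM.

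The 250 bases upstream of the start are printed for the 4 called genes that have an entry in the RefSeq promoter table (GRCm38.p6), and are shown because Zfp985 was higher and the other 3 were lower in Clrn1-/- mice. They are chr4:147553027-147553276 for Zfp985, chr4:147492167-147492416 for Zfp982 and chr4:147305354-147305603 for Zfp988 on the plus strand, and chr4:147809789-147810038 for Zfp984 on the minus strand. Capitals mark the longest run of bases that all 4 share, TATTGGGCGGGTCCAGAAGG, which was looked for on both strands.
Zfp985: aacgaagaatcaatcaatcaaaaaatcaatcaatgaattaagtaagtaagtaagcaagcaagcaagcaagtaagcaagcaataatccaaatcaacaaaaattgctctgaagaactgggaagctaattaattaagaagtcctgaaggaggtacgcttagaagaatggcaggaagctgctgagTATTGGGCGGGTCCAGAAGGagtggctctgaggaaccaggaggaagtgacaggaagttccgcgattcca
Zfp982: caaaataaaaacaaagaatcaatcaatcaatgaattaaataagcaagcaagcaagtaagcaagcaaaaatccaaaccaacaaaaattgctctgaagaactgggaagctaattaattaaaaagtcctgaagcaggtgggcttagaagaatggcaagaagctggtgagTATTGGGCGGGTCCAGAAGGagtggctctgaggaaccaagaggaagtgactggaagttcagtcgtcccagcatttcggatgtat
Zfp984: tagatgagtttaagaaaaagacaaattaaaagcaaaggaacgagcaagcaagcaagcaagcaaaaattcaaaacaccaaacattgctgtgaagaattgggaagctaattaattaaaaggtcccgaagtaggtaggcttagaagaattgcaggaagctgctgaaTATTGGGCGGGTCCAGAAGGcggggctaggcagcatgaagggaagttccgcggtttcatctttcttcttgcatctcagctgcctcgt
Zfp988: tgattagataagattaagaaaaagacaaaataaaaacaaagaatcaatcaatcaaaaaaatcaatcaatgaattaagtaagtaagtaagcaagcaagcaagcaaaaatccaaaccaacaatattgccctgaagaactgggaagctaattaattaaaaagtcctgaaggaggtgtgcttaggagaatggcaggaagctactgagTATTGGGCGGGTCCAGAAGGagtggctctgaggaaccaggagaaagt

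The promoter of Zfp985 was 82.6% identical to that of Zfp982, 74.5% to that of Zfp988 and 71.1% to that of Zfp984. Such likeness was not particular to called genes. Among cluster genes not called against wild-type or not tested, it was 84.2% for Zfp987, 83.5% for Zfp600, 82.9% for Zfp979 and 82.6% for Zfp980. For Zfp981, Zfp933 and Zfp993 it was 71.2%, 49.6% and 48.6%. The run of 20 bases begins 69 bases before the start in Zfp985, 84 in Zfp982, 87 in Zfp984 and 47 in Zfp988. It was found in 8 of 32851 promoters of the same length (0.0244%). All 8 belong to genes of this stretch of chromosome 4, namely Zfp600, Zfp980, Zfp982, Zfp984, Zfp985, Zfp988, Gm13212 and Rex2. The run was defined from the promoters of Zfp982, Zfp984, Zfp985 and Zfp988, so its presence in these was fixed in advance. A link between the run and the levels was not tested.

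Shared sequence bears on the counts, because a read that fits several genes equally well was not assigned to any. The share of 100-base windows of a gene's transcripts that also occur in transcripts of another gene had a median of 0.318% over the 174 genes and 42.5% over the 17 of the cluster. For the called genes it was 3.60% in Zfp990, 1.73% in Zfp985 and 3.06% in Zfp982, and 30.9% in Zfp984, 44.6% in Zfp988 and 70.3% in Zfp991. The level of the last 3 is thus uncertain, as reads that fit similar copies equally well were not counted. By contrast, nearly all of the sequence of Zfp990, Zfp985 and Zfp982 is their own among annotated transcripts.

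Zfp990 had the largest fitted difference from wild-type of the 149 genes. It lay at 4.52, 4.24 and 3.76 CPM in the 3 Clrn1-/- libraries, at 0, 0 and 0.0253 CPM in wild-type, at 0 in all 3 Clrn2-/- libraries and at 0.0328, 0 and 0.0258 CPM in double mutants. In counts, these are 452 in Clrn1-/- libraries against 1, 0 and 2 in the other genotypes, so the gene was present in the RNA of Clrn1-/- mice and hardly detected elsewhere. Scaled to depth, the ratio to wild-type was 464 (95% exact interval 82.8 to 18360) and the ratio to double mutants 214 (58.9 to 1772), where the intervals cover counting error only. Against Clrn2-/- mice the level was at least 48.8-fold higher, with a floor of 3 counts per library in Clrn2-/-. The edgeR adjusted p was 1.07e-08 against wild-type and 2.15e-08 against double mutants, and the fitted log2 difference from wild-type moved from 8.39 to 10.21 without wild-type replicate 3, which held the only wild-type count, and to 7.75 with limma-voom. The gene lies at chr4:145510759-145539188 on the plus strand and is the first of the cluster, and its transcripts hold 8 matches to the linker pattern.

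Zfp985 had the same pattern at a lower level. It lay at 0.506, 0.646 and 0.571 CPM in Clrn1-/- libraries, at 0.0281, 0.0274 and 0.152 in wild-type, at 0.0269, 0 and 0.0281 in Clrn2-/- and at 0.0655, 0.119 and 0 in double mutants. The Clrn1-/- libraries lay above all others. The 63 counts in Clrn1-/- libraries stood against 8 in wild-type, a ratio of 8.08 (95% exact interval 3.86 to 19.5, counting error only), with an edgeR adjusted p of 0.00103. Wild-type replicate 3 held most of the wild-type counts, and without it the fitted log2 difference rose from 2.95 to 4.21. Zfp990 and Zfp985 passed the filter on low counts only through the Clrn1-/- libraries, so that their being called among tested genes is no evidence on the family.

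Zfp982 had the largest decrease of the 149 in Clrn1-/- mice against wild-type. Its level was 2.56, 1.72 and 1.90 CPM in wild-type and 0.0948, 0.362 and 0.260 in Clrn1-/- libraries. It was 1.40, 1.41 and 1.38 CPM in Clrn2-/- libraries and 2.00, 2.29 and 1.93 in double mutants. Clrn1-/- libraries lay below all others, and Clrn2-/- libraries lay below wild-type without overlap. In Clrn1-/- mice the log2 fold change was -3.04 ± 0.28 (SE), with an edgeR adjusted p of 1.55e-06. It was -0.56 ± 0.22 in Clrn2-/- mice (edgeR adjusted p = 0.0988) and 0.01 ± 0.21 in double mutants (edgeR adjusted p = 0.974).

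Zfp991 and Zfp984 fell in Clrn1-/- mice from higher levels. Zfp991 lay at 7.55, 6.76 and 8.32 CPM in wild-type, at 1.83, 1.81 and 3.01 in Clrn1-/-, at 7.45, 6.73 and 8.12 in Clrn2-/- and at 5.86, 8.14 and 8.63 in double mutants. Zfp984 lay at 5.14, 6.24 and 4.98 CPM in wild-type, at 1.74, 2.02 and 2.23 in Clrn1-/-, at 4.38, 5.26 and 5.11 in Clrn2-/- and at 4.91, 6.56 and 4.59 in double mutants. For both genes the Clrn1-/- libraries stood apart and the other 9 overlapped. In Clrn1-/- mice the log2 fold change was -1.76 ± 0.18 for Zfp991 (edgeR adjusted p = 5.22e-06) and -1.44 ± 0.16 for Zfp984 (edgeR adjusted p = 9.31e-06). In double mutants the values were 0.01 ± 0.16 and -0.03 ± 0.14.

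Zfp988 was called at a level close to the limit of detection, and is named although it stays below the 0.5 CPM set for named genes, having been chosen after its values were seen. It lay at 0.309, 0.137 and 0.202 CPM in wild-type, at 0.0632, 0.0259 and 0.0519 in Clrn1-/-, at 0.242, 0.275 and 0.309 in Clrn2-/- and at 0.131, 0.327 and 0.0773 in double mutants. The Clrn1-/- libraries were the lowest in every pair, although double mutants came near them. Against wild-type its log2 fold change was -2.14 ± 0.65, with an edgeR adjusted p of 0.0222. The call was lost without Clrn1-/- replicate 2 (edgeR adjusted p = 0.0898), without Clrn1-/- replicate 3 (0.0538), without wild-type replicate 1 (0.0898) and with DESeq2 (adjusted p = 0.0503), and that against Clrn2-/- mice (log2 fold change -2.49 ± 0.62, edgeR adjusted p = 0.011) was lost without Clrn1-/- replicate 2 (0.0572).

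The remaining 5 tested genes of the cluster were not called in Clrn1-/- mice against wild-type, and Zfp933, Zfp979 and Zfp993 are named after their values were seen. Zfp933, which ends the cluster and shares no 100-base window with another gene, lay at 17.1, 17.5 and 16.3 CPM in wild-type and at 11.95, 13.6 and 11.5 in Clrn1-/- libraries, without overlap. Its log2 difference of -0.46 ± 0.09 passed the adjusted p (0.00116, edgeR) and not the fold minimum. Zfp992 lay at 4.32, 2.87 and 4.07 CPM in wild-type and at 5.31, 4.96 and 5.04 in Clrn1-/- libraries (log2 difference 0.44, edgeR adjusted p = 0.0673). Zfp981, Zfp979 and Zfp993 had log2 differences of 0.76, 0.29 and -0.08, with edgeR adjusted p of 0.225, 0.276 and 0.894.

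Of the 6 genes of the cluster that were not tested, Zfp980 and Zfp600 held 5 counts each over all libraries, Zfp978 held 9, Zfp986 held 35, and Zfp987 and Zfp989 held 2 each. Zfp980 had all of its 5 counts in Clrn1-/- libraries. These counts are too few for a comparison.

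**Figure D3:**
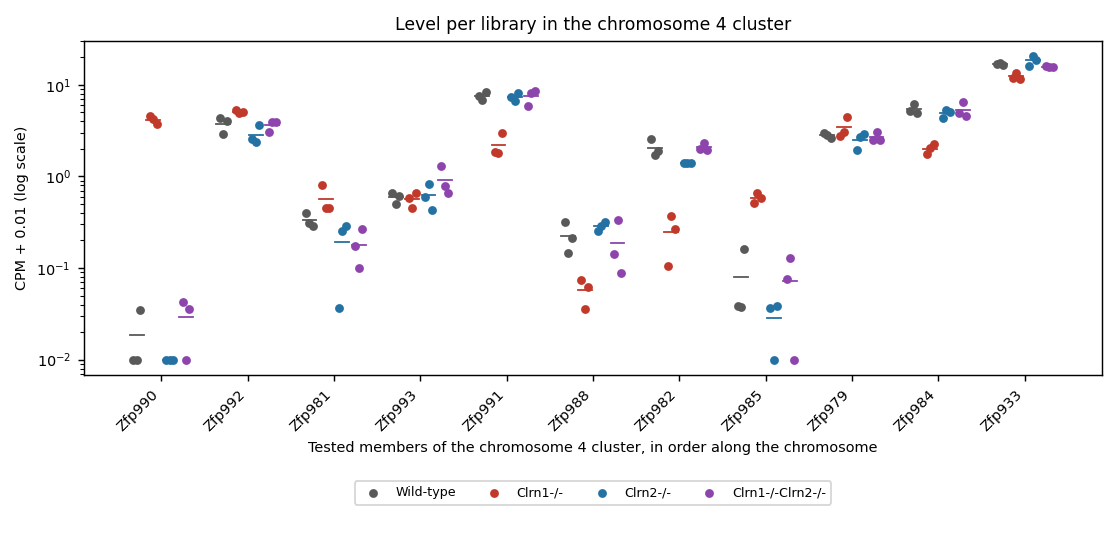
Level of the 11 tested members of the chromosome 4 cluster in order along the chromosome, as CPM + 0.01 on a log scale, with a point per library and a line at each genotype's mean. The Clrn1-/- points of Zfp990 and Zfp985 stand above all others and those of Zfp982, Zfp984, Zfp988 and Zfp991 below, while the other 3 genotypes overlap for most genes.

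Against the other mutants, the same cluster set Clrn1-/- mice apart. Against Clrn2-/- mice, 10 of the 149 genes were called, 5 in each direction, and 8 of the 10 lay in the cluster. These 8 were the 6 called against wild-type plus Zfp992 and Zfp981, both over-expressed. Of all genes, 4.73% were called, 2.40% over-expressed and 2.34% under-expressed. By adjusted p alone 34 of the 149 passed (22.8%, against 18.5% of all genes), and libraries did not overlap for 54 (36.2%, against 34.6%). Zfp992 lay at 2.55, 2.36 and 3.65 CPM in Clrn2-/- libraries, below all Clrn1-/- libraries (log2 fold change 0.83 ± 0.18, edgeR adjusted p = 0.00378). Zfp981 lay at 0.790, 0.440 and 0.441 CPM in Clrn1-/- and at 0.0269, 0.245 and 0.281 in Clrn2-/- libraries (log2 fold change 1.58 ± 0.49, edgeR adjusted p = 0.0353). Its call was lost without Clrn1-/- replicate 1 (edgeR adjusted p = 0.150), without Clrn1-/- replicate 2 (0.0568), without Clrn2-/- replicate 1 (0.117) and without Clrn2-/- replicate 2 (0.0563).

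Double mutants, which also lack clarin-1, differed from Clrn1-/- mice in 10 of the 149 genes, 3 over-expressed and 7 under-expressed. Of these 10, 6 lay in the cluster, with Zfp982, Zfp991 and Zfp984 higher and Zfp990, Zfp985 and Zfp981 lower in double mutants. The log2 fold changes were 3.05 ± 0.29 for Zfp982, 1.76 ± 0.18 for Zfp991 and 1.41 ± 0.16 for Zfp984. Of all genes, 7.23% were called, 4.62% over-expressed and 2.61% under-expressed. By adjusted p alone 37 of the 149 passed (24.8%, against 30.4% of all genes), and libraries did not overlap for 60 (40.3%, against 46.0%). Against Clrn2-/- mice, double mutants differed in 2 of the 149, Zfp648 and Zfp951, both under-expressed and both outside the cluster. In that comparison 5.10% of all genes were called, 3.67% over-expressed and 1.43% under-expressed. The adjusted p alone was passed by 19 of the 149 (12.8%, against 27.6% of all genes), and libraries did not overlap for 43 (28.9%, against 42.4%). These comparisons share libraries with those against wild-type and are not independent of them. Zfp981 lost its call against Clrn1-/- mice without Clrn1-/- replicate 1 (edgeR adjusted p = 0.0896), without double mutant replicate 1 (0.0569) and without double mutant replicate 2 (0.091), and for Zfp985 the log2 fold change moved from -3.23 to -4.17 without double mutant replicate 2 and to -2.60 without replicate 3.

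The interaction of the 2 genotypes asks whether double mutants differed from Clrn2-/- mice as Clrn1-/- mice differed from wild-type. It was called for 6 of the 149 genes, 3 in each direction, against 5.50% of all genes, 3.58% positive and 1.92% negative. The value is the log2 difference of double mutants from Clrn2-/- mice minus that of Clrn1-/- mice from wild-type. It was 3.61 ± 0.36 for Zfp982, 1.78 ± 0.25 for Zfp991 and 1.56 ± 0.22 for Zfp984, with edgeR adjusted p of 1.08e-05, 0.00016 and 0.000168. It was -1.25 ± 0.30 for Zfp853, -0.88 ± 0.18 for Zfp963 and -0.64 ± 0.15 for Zfp941, with edgeR adjusted p of 0.0092, 0.00287 and 0.00805. The call of Zfp941 was lost without double mutant replicate 1 (-0.58) and without wild-type replicate 1 (-0.55), as its value then fell under the fold minimum. For Zfp990 and Zfp985, with 0 and 2 counts in Clrn2-/- libraries, the edgeR value had an SE of 53.98 and 1.72, and Zfp990 was called by limma-voom (-6.65) and DESeq2 (-6.87), values that depend on how zeros are handled.

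Other genes lie between those of the cluster. Of 12 that were tested, 1 was called higher and 1 lower in Clrn1-/- mice. The pseudogene Znf41-ps fell from 3.98 ± 0.708 to 1.78 ± 0.510 CPM (log2 fold change -1.15), and it shares more windows with Zfp991 than any other gene does. The pseudogene Rps19-ps3, next to Zfp933, rose from 1.34 ± 0.206 to 3.01 ± 0.112 CPM (log2 fold change 1.16). In the 5 Mb before the cluster 14 of 55 tested genes were called in Clrn1-/- mice (25.5%), and in the 5 Mb after it 10 of 82 (12.2%), against 7.22% of all genes.

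A gene known to differ between laboratory strains moved with genotype as well. Ifi202b, an interferon-inducible gene, had 0 CPM in wild-type, 4.12 ± 0.737 CPM in Clrn1-/- mice, 0.0741 ± 0.0395 CPM in Clrn2-/- mice and 1.09 ± 0.201 CPM in double mutants (SD, n = 3). It was called higher in all 3 mutants. Its mean in Clrn2-/- mice lies below the filter on low counts (about 0.274 CPM), so that call rests on few counts against none in wild-type. Of the other 4 genes of that list, Entpd4 was not tested, Nnt and Glo1 were not called, and Wdfy1 was lower in all 3 mutants by adjusted p alone, with log2 differences of -0.25, -0.29 and -0.35. In Clrn2-/- mice 2 of the 4 tested genes of the list, Ifi202b among them, were higher by adjusted p alone. The part of strain background in the values of the zinc finger genes was not tested.

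Of the 149 genes, 5 that lie outside the chromosome 4 cluster were called in at least 1 of the 7 tests. They are Zfp951, Zfp853, Zfp963, Zfp648 and Zfp941. The share of all genes called in at least 1 test was not counted, and single tests called 2.66% to 9.90% of all genes. Zfp951, on chromosome 5, lay at 3.85, 4.46 and 4.07 CPM in wild-type, at 1.77, 1.99 and 1.79 in Clrn1-/-, at 5.11, 5.11 and 6.18 in Clrn2-/- and at 3.05, 2.41 and 2.16 in double mutants. No 2 of the 4 genotypes overlapped, in the order Clrn2-/-, wild-type, double mutants and Clrn1-/-. Its log2 fold change against wild-type was -1.15 ± 0.15 in Clrn1-/- mice (edgeR adjusted p = 3.44e-05), -0.71 ± 0.14 in double mutants (0.000948) and 0.41 ± 0.13 in Clrn2-/- mice (0.0519). Against Clrn2-/- mice it was -1.56 ± 0.14 in Clrn1-/- mice and -1.11 ± 0.14 in double mutants, and the gene was thus lower in both genotypes without clarin-1. It shares no 100-base window with another gene.

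Zfp853, also on chromosome 5, was higher in Clrn1-/- mice. It lay at 1.30, 1.76 and 1.51 CPM there, at 0.674, 0.739 and 0.632 in wild-type, at 0.968, 0.887 and 0.983 in Clrn2-/- and at 1.11, 0.743 and 0.824 in double mutants. Against wild-type its log2 fold change in Clrn1-/- mice was 1.16 ± 0.21 (edgeR adjusted p = 0.00069). All mutant libraries lay above those of wild-type, although Clrn2-/- and double mutants did not pass the test (log2 differences 0.47 and 0.38, edgeR adjusted p = 0.178 and 0.206). Against Clrn2-/- mice the log2 fold change of 0.69 ± 0.20 lost its call without Clrn1-/- replicate 2 (edgeR adjusted p = 0.121), without Clrn1-/- replicate 3 (0.0513), without Clrn2-/- replicates 1, 2 or 3 (0.0582, 0.0791 and 0.0563) and with DESeq2 (adjusted p = 0.0713).

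Zfp963, in a cluster of 6 on chromosome 8, lay at 5.60, 5.69 and 5.01 CPM in Clrn1-/- libraries, above the 2.98 to 3.69 of wild-type, the 3.64 to 3.71 of Clrn2-/- and the 2.91 to 3.60 of double mutants. The log2 fold change against wild-type was 0.75 ± 0.12 (edgeR adjusted p = 0.00031), and that of double mutants against Clrn1-/- mice -0.70 ± 0.12 (edgeR adjusted p = 0.00042). Of its windows, 36.2% occur in other genes, so its level is uncertain.

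Zfp648, on chromosome 1, was a low gene that fell in double mutants. It lay at 0.730, 0.548 and 0.405 CPM in wild-type, at 0.348, 0.284 and 0.363 in Clrn1-/-, at 0.323, 0.367 and 0.421 in Clrn2-/- and at 0.0655, 0.119 and 0.0773 in double mutants. All double mutant libraries lay below all others. In double mutants the log2 fold change was -2.63 ± 0.39 against wild-type (edgeR adjusted p = 6.92e-05), -1.88 ± 0.43 against Clrn1-/- (0.00335) and -2.04 ± 0.42 against Clrn2-/- mice (0.0022). Clrn1-/- mice differed from wild-type by -0.75 ± 0.30 (edgeR adjusted p = 0.0803), which passed the test without wild-type replicate 3 (-0.94, edgeR adjusted p = 0.045).

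Zfp941, on chromosome 7, was called once between 2 groups, between double mutants and Clrn1-/- mice. It lay at 9.21, 10.4 and 11.6 CPM in double mutants and at 14.9, 15.4 and 16.7 in Clrn1-/- libraries, without overlap, and at 10.7, 14.4 and 13.2 in wild-type and 13.0, 12.5 and 14.5 in Clrn2-/- libraries. Its log2 fold change of -0.585 ± 0.11 (edgeR adjusted p = 0.000587) lay at the fold minimum, and fell below it with limma-voom (-0.5848), with the FPKM filter (-0.5843), in a fit of the 2 groups alone (-0.5845), without Clrn1-/- replicate 3 (-0.55), without Clrn2-/- replicate 1 (-0.58) and without double mutant replicate 1 (-0.52).

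Zfp738, on chromosome 13, came within rounding of a call and is named after its values were seen. It lay at 41.1, 37.7 and 40.99 CPM in wild-type, at 30.3, 30.6 and 30.3 in Clrn1-/-, at 41.2, 41.6 and 41.9 in Clrn2-/- and at 25.2, 29.8 and 28.1 in double mutants. Both genotypes without clarin-1 thus lay below both with it, without overlap. On the log2 scale the difference was -0.39 ± 0.06 in Clrn1-/- mice against wild-type (edgeR adjusted p = 0.000116). In double mutants it was -0.53 ± 0.06 against wild-type (edgeR adjusted p = 3.2e-06) and -0.5845 ± 0.06 against Clrn2-/- mice (3.67e-06), and the latter passed the fold minimum with limma-voom (-0.5852) and DESeq2 (-0.5899).

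**Figure D4:**
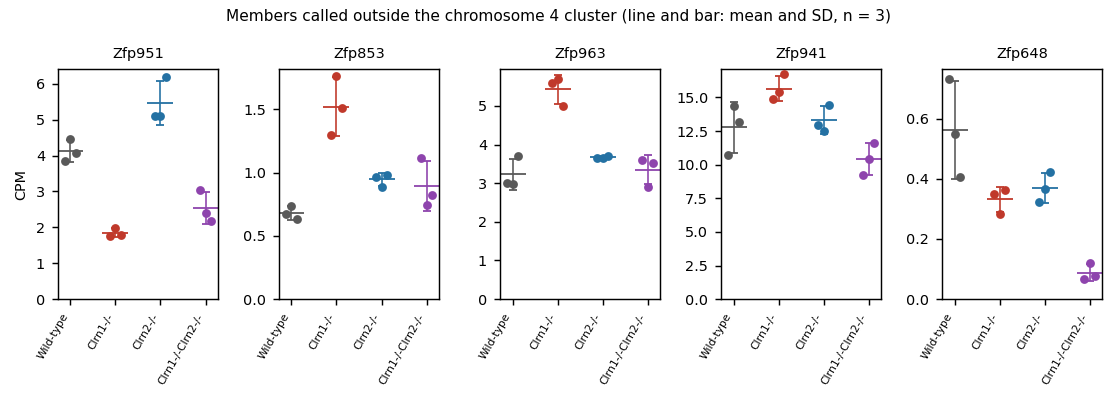
Level in CPM of the 5 members called outside the chromosome 4 cluster, with a point per library and the mean and SD of 3 libraries per genotype. Zfp951 is lowest in Clrn1-/- libraries at 1.77 to 1.99 CPM, Zfp853 and Zfp963 are highest there, and Zfp648 is lowest in double mutants.

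Chromosomes 3 and 5 hold Clrn1 and Clrn2, so that the genes of the set on them were given in full. On chromosome 3, Zfp704 lies 49.2 Mb before Clrn1 and Zfp639 lies 26.3 Mb before it, while Zfp687 and Zfp697 lie 36.1 and 39.5 Mb after it. None of the 4 was called against wild-type by edgeR, limma-voom or DESeq2, and 8 of the 12 edgeR values had an unadjusted p under 0.05. Zfp704 rose by adjusted p alone, from 46.0 ± 0.580 CPM in wild-type to 61.0 ± 6.64 in Clrn1-/- mice (log2 difference 0.41) and 57.1 ± 0.649 in double mutants (0.31), without overlap. Zfp639 was lower by adjusted p alone in both, with log2 differences of -0.16 and -0.24, and likewise Zfp697 in Clrn1-/- mice, with -0.26. Zfp687 lay between 32.9 and 36.6 CPM in the 4 genotypes, with log2 differences of -0.12 to 0.03 that did not pass the test.

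On chromosome 5, the 7 tested genes lie 59.3 to 99.8 Mb after Clrn2. Besides Zfp951 and Zfp853, none was called against wild-type. Zfp932, a KRAB zinc finger gene known to repress endogenous retroviruses in embryonic stem cells, was at 21.8 ± 1.84 CPM in Clrn2-/- mice and at 17.5 ± 0.528 in wild-type (log2 difference 0.31, edgeR adjusted p = 0.0176), below the fold minimum. Zfp605 in Clrn1-/- mice (0.25) and Zfp664 in double mutants (0.10) passed the adjusted p alone. Zfp644, whose human counterpart has been tied to high myopia, and Zfp655 had log2 differences of -0.01 to 0.09 in the 3 mutants, with no adjusted p under the threshold.

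A pair of other clusters is described after their values were seen. In the cluster on chromosome 17 (chr17:21383748-22867134), all 14 genes were tested and none was called in any mutant against wild-type by edgeR, limma-voom or DESeq2, although 17 of the 42 edgeR values had an unadjusted p under 0.05. In Clrn1-/- mice 12 of the 14 had lower values and 7 passed by adjusted p alone, as did 26.9% of all genes, with a median log2 difference of -0.27, against -0.0031 for all genes. In Clrn2-/- mice 10 of the 14 had lower values (median -0.18), and in double mutants 8 (median -0.04). Zfp944, named after its values were seen, had the lowest value in Clrn1-/- mice at -0.48, and Zfp983 was at 14.4 ± 0.449 CPM there against 18.998 ± 1.05 CPM in wild-type (log2 difference -0.40), both below the fold minimum. In the cluster of 11 on chromosome 2, 8 genes did not pass the filter on low counts. Zfp973 is among these 8 and was called in double mutants against Clrn2-/- mice with no low-count filter. The other 3, Zfp970, Zfp971 and Zfp931, are named because they were tested. Their log2 differences in Clrn1-/- mice were -0.43, -0.16 and -0.34.

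The RNAs of the proteins through which KRAB zinc finger proteins act were also measured. Of 35 listed genes for co-repressors, chromatin modifiers and their partners, 34 were in the files and all 34 were tested. The edgeR test called 1 of the 34, in double mutants, where 9.90% of all genes were called. By adjusted p alone, 10 were higher and 4 lower in Clrn1-/-, 5 and 1 in Clrn2-/-, and 16 and 1 in double mutants, and the shares of all genes were 26.9%, 14.2% and 37.0%. The median log2 differences were 0.09, 0.06 and 0.14, against medians of all genes of -0.0031, -0.0025 and 0.001. The called gene was Resf1, which regulates retroelement silencing with SETDB1, at 61.7 ± 0.422 CPM in double mutants against 40.1 ± 2.91 in wild-type (log2 fold change 0.62, edgeR adjusted p = 5.44e-07). Trim28 lay at 121 ± 2.91 CPM in wild-type, 123 ± 5.93 CPM in Clrn1-/- mice, 122 ± 5.56 CPM in Clrn2-/- mice and 136 ± 1.31 CPM in double mutants. Setdb1 lay at 54.0 to 55.7 CPM in the 4 genotypes, with log2 differences of 0.01 to 0.04. Hdac1, a histone deacetylase, was at 31.4 ± 1.11 CPM in Clrn1-/- mice and 45.1 ± 0.790 in wild-type, a log2 difference of -0.52 that passed the adjusted p (1.21e-06, edgeR) and not the fold minimum.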

How the data were processed

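The authors aligned paired strand-specific reads of 100 bases with STAR and deposited raw counts per gene on GRCm38.p6 (Gencode M24), with no normalization or pooling. The submitters' processing notes also name DESeq2, and tool versions were not given in the sources used here. STAR counts only reads that map to 1 place, and 2.38% to 2.66% mapped to several. The counts in the orientation of the kit (95.2% to 95.6% of stranded counts) were used, and the 13.5% to 15.8% that fell on no gene were left out.

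Positions and exon lengths came from Gencode M21, promoters from the RefSeq table (147 of 174 genes matched). In R 4.3.3 with edgeR 4.0.16, filterByExpr (minimum count 10, about 0.274 CPM) kept 19052 genes. All 12 libraries were scaled by TMM (factors 0.963 to 1.02) and fitted with genotype alone, and the quasi-likelihood test with Benjamini-Hochberg adjustment over all 19052 genes was used for the 6 pairs of genotypes and the interaction. Calls needed both 1.5-fold or more and an adjusted p not above 0.05. Scripts were tested on simulated data.

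Members, lists and tests were chosen with earlier results of these data known. Named genes are called members whose libraries do not overlap and that reach 0.5 CPM in a group (up to 8 per direction), the 10 highest per length, the tested members on chromosomes 3 and 5, up to 5 per direction called for the interaction, and up to 3 called per direction of each other list. Those outside the rule are Zfp988, Zfp933, Zfp979, Zfp993, Zfp612, Zfp942, Zfp946, Zfp944, Zfp983, Zfp970, Zfp971, Zfp931, Zfp738, Trim28, Setdb1, Hdac1, untested genes and genes called only under an alternative. Likeness of patterns over libraries is not given, since Clrn1-/- libraries form a cluster of their own. Replicates of a genotype varied by 4.13 to 17.4 times counting noise, so each was counted as a sample of its own. Deviations of same-numbered libraries from their group means (over 12450 genes) had correlations of 0.291, 0.134 and 0.111 between wild-type and Clrn1-/-. Over all 18 pairs they ranged from -0.279 to 0.306. Libraries of different number were not compared, so the values cannot show whether libraries were paired. Alternatives were limma-voom (3.58.1), DESeq2 (1.42.0), library size alone, no low-count filter, FPKM of at least 0.1 in 1 library, the 2 groups alone, a fit with the replicate block, calls without a fold minimum, counts of both strands, and the omission of each library in turn.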

Additional observations from a re-analysis of the deposited data

Results flagged for a closer look

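The edgeR test of the interaction called 6 of the 149 genes, while 5.50% of all genes were called. For these 6 the difference of double mutants from Clrn2-/- mice was unlike that of Clrn1-/- mice from wild-type. The log2 difference of double mutants from Clrn2-/- mice minus that of Clrn1-/- mice from wild-type was 3.61 for Zfp982, 1.78 for Zfp991 and 1.56 for Zfp984, all in the cluster on chromosome 4, and -1.25 for Zfp853, -0.88 for Zfp963 and -0.64 for Zfp941. Zfp982, Zfp991 and Zfp984 were lower in the 3 Clrn1-/- libraries than in the other 9, and Zfp963 was higher in these 3 than in the other 9. Double mutants, which carry the same Clrn1 deletion, overlapped with wild-type for Zfp982, Zfp984, Zfp991, Zfp963 and Zfp941. Zfp941 lost its interaction call without double mutant replicate 1 and without wild-type replicate 1. Groups of 3 libraries were not searched for outlying libraries.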

How the results depend on the processing

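Of 39 values called for the genes named, 32 kept their call under every alternative, 7 lost it in at least 1, and none reversed. With the replicate number as a block, 9, 0, 2, 10, 10 and 3 of the 149 genes were called in Clrn1-/-, Clrn2-/- and double mutants against wild-type, Clrn1-/- against Clrn2-/-, double mutants against Clrn1-/- and against Clrn2-/-, and 6 for the interaction. The block ended no call named. With no fold minimum, the counts in the same order were 41, 6, 31, 34, 37 and 19, and 18 for the interaction. With no low-count filter or an FPKM of at least 0.1, 4 genes were called in double mutants against Clrn2-/- mice. With each library left out, the counts ranged from 8 to 10, 0 to 1, 2 to 3, 8 to 10, 8 to 12 and 2 to 4, and from 5 to 9 for the interaction. The single call in Clrn2-/- mice was Zfp992 (-0.60) without Clrn2-/- replicate 3 and Zfp773 (0.65) without wild-type replicate 3, and the 4 calls of double mutants against Clrn2-/- mice, with Zfp738 and Zfp773 added, came without Clrn2-/- replicate 3. Other genes gained a call between 2 genotypes with some library left out, namely Zfp648 and Zfp781 in Clrn1-/- and Zfp738 in double mutants against wild-type, Zfp931, Zfp933, Zfp960 and Zfp963 in Clrn1-/- against Clrn2-/- mice, and Zfp781, Zfp868 and Zfp988 in double mutants against Clrn1-/- mice, and Zfp677, Zfp773, Zfp781, Zfp791 and Zfp868 for the interaction. Outside the chromosome 4 cluster, an alternative chosen after seeing the data, 3 genes were called in Clrn1-/- mice against wild-type, 2 against Clrn2-/- mice, 4 in double mutants against Clrn1-/- mice and 3 for the interaction. The summed level moved to 3308 CPM in Clrn1-/- mice with library size alone, where it was 3176 CPM in wild-type, 3297 in Clrn2-/- mice and 3273 in double mutants and all 9 mutant libraries lay above wild-type, and to 3348, 3373 and 3320 CPM in Clrn1-/-, Clrn2-/- and double mutants with unstranded counts. Except where a setting leaves out genes or libraries or drops the fold minimum, the cause was not tested. The filter on low counts kept 25 genes out of the main test. Of these, Zfp973 was called lower in double mutants against Clrn2-/- mice with no low-count filter (-2.65, edgeR adjusted p = 0.021). With an FPKM of at least 0.1 it was also called (-2.645, edgeR adjusted p = 0.0398).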
